A study of Mus musculus with 6 samples.

Results

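The genes described here make, modify or carry glycosaminoglycans, the long sugar chains of proteoglycans. They were chosen by name, as the enzymes of heparan sulfate and chondroitin sulfate synthesis, the syndecan and glypican core proteins, agrin, perlecan, versican, biglycan, decorin and the hyaluronan synthases. The rule gave 61 genes of 20624. A further 10 genes of the same families (B3gat1, Chst13, Chst4, Chst6, Chst8, Gpc5, Has1, Hs3st2, Hs3st4 and Hs6st3) were not analysed here. RNA was sequenced from mDCT15 cells, a mouse cell line of the distal convoluted tubule of the kidney. The comparison was between 3 samples of Pkd1-/- cells, in which the polycystin-1 gene Pkd1 was disrupted by CRISPR/Cas9, and 3 samples of wild type cells. Both were grown in DMEM/F12 with 5% fetal bovine serum and penicillin-streptomycin, with no other treatment named. The sample titles give the genotype as Pkd1-/-, while a genotype label calls the same samples a knockdown. Whether the Pkd1-/- line is a clone is not given in the sources used here, and any difference between the cells that is unrelated to Pkd1 cannot be told apart from the genotype.

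Heparan sulfate is built in the Golgi on a linker sugar that is attached to a core protein. Polymerases extend the chain, N-deacetylase/N-sulfotransferases and an epimerase prepare it, and O-sulfotransferases then add sulfate at set positions, a pattern that decides which growth factors, morphogens and proteases the chain binds. Chondroitin and dermatan sulfate start from the same linker and are extended and sulfated by their own enzymes. In the kidney, heparan sulfate on the cell surface presents growth factors during tubule branching, and that of the basement membrane surrounds each tubule.

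The values come from a comparison of the genotypes over all samples, which gives for each gene a mean normalized count (reads per gene after scaling for library depth), a log2 fold change and its standard error (SE). Single samples were outside the analysis, so whether the samples of the genotypes overlap is not known and the spread between samples enters only through the SE. Log2 fold changes are given as Pkd1-/- over wild type, so that negative values are lower in Pkd1-/- cells. The level in each genotype is the implied mean normalized count, worked out from the mean over the 6 samples and the fold change. An adjusted p is the Wald p-value of DESeq2 after Benjamini-Hochberg adjustment over all 20624 genes, and a gene is called when it is under 0.05. The samples are labelled as biological replicates, but nothing says whether they were separate cultures, and the p-values then measure only the spread between these samples.

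Pkd1 itself had an implied mean normalized count of 3541 in wild type and 2809 in Pkd1-/- cells (log2 fold change -0.33, SE 0.08, adjusted p = 2.04e-04), so its RNA was lower but present. The mean normalized counts summed to 16746088 per library, and depth per sample is unknown. Of 10 markers of the distal convoluted tubule, 7 were measured, with summed implied counts of 10023 in wild type and 9359 in Pkd1-/- cells, while the defining markers Slc12a3, Pvalb and Calb1 were not among the genes analysed. Most of that sum is Wnk1 (8968 and 7967), and other markers changed in both directions, with Wnk4, Kcnj10 and Klhl3 lower (log2 fold changes -1.40, -2.44 and -4.69) and Sgk1 and Trpm6 higher (1.81 and 0.73). Summed epithelial markers went from 8141 to 1485 (4 of 6 measured), nearly all of it Cdh16 (8023 to 1338), while Epcam was higher by a log2 fold change of 0.44 (adjusted p = 0.0244) and Krt8 and Krt7 were not called. Summed proximal tubule markers went from 11551 to 6442 (3 of 3), nearly all of it Lrp2 (11358 to 6293). Cubn had a log2 fold change of -0.34 (adjusted p = 0.0311), and Slc34a1 was at a low count and not called. The summed stromal markers went from 173 to 471 (5 of 5), while endothelial markers were at 4.2 and 5.16 (1 of 3) and leukocyte markers at 53.2 and 41.4 (2 of 3). Neither thick ascending limb marker was measured, and the only collecting duct marker measured summed to 2.67 and 1.2. All samples are of the same cell line. In its bulk RNA, fewer cells expressing a marker and less RNA per cell cannot be told apart. Genes on chromosome X were higher in Pkd1-/- cells as a group, with a median log2 fold change of 0.66 over the 312 genes whose mean normalized count reached 100, against 0.02 over 10382 such genes of all chromosomes. Genes on chromosomes 6 and 16 were lower, with medians of -0.39 and -0.43, but no member lies there.

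Of the 61 genes, 36 were called (59.0%, against 35.7% of all genes). Of these, 20 were higher in Pkd1-/- cells (16.9% of all genes were) and 16 were lower (18.8% of all genes). A called change with a fold over 2 was found for 13 members, against 8.92% of all genes. The 4 higher ones were Gpc1, Dsel, Hs3st3b1 and Has2 (2.53% of all genes passed in that direction), and the 9 lower ones were Hs6st2, Gpc3, Hs3st5, Chst10, Ndst4, Chst1, Chst9, Hs3st1 and Gpc4 (6.4% of all genes). When the test asked whether the change exceeded a fold change of 2, 9 members passed, 8 lower and 1 higher, against 3.48% of all genes. The median log2 fold change of the members was 0.11, beside -0.03 over all genes, so the group did not lie on one side. The remaining calls were of moderate size, with 9 between 1.5-fold and 2-fold and 14 under 1.5-fold.

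The share called rose with the mean count, among members as among all genes. With a mean normalized count of at least 10, 34 of 49 members were called (69.4%, against 50.3% of all such genes), and with at least 100, 27 of 38 (71.1%, against 56.2%). Below a mean of 10, 2 of 12 members were called (16.7%, against 6.59% of such genes). The SE had a median over all genes of 1.15 below a mean of 10 and 0.08 from a mean of 100. Of the 25 members not called, 10 had a mean under 10. The 11 not called with a mean of at least 100 had log2 fold changes between -0.12 and 0.21, and their 95% intervals stayed between -0.33 and 0.47.

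**Figure D1:**
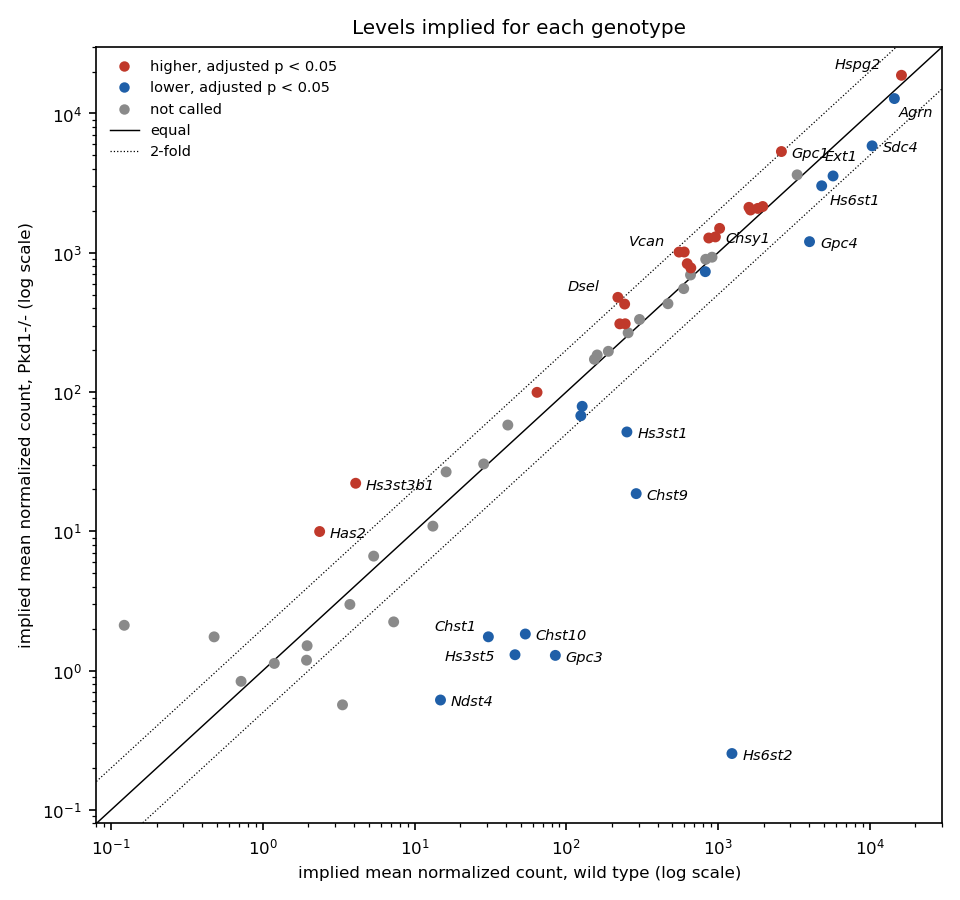
Implied mean normalized count of each of the 61 genes in wild type (x axis) and Pkd1-/- cells (y axis), both on log scales, 1 point per gene, colored by its call at an adjusted p under 0.05. Most points lie between the dotted 2-fold lines, while Hs6st2 falls from 1237 to under 1 and Gpc3, Hs3st5, Chst10, Chst1 and Ndst4 fall below 2.

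**Figure D2:**
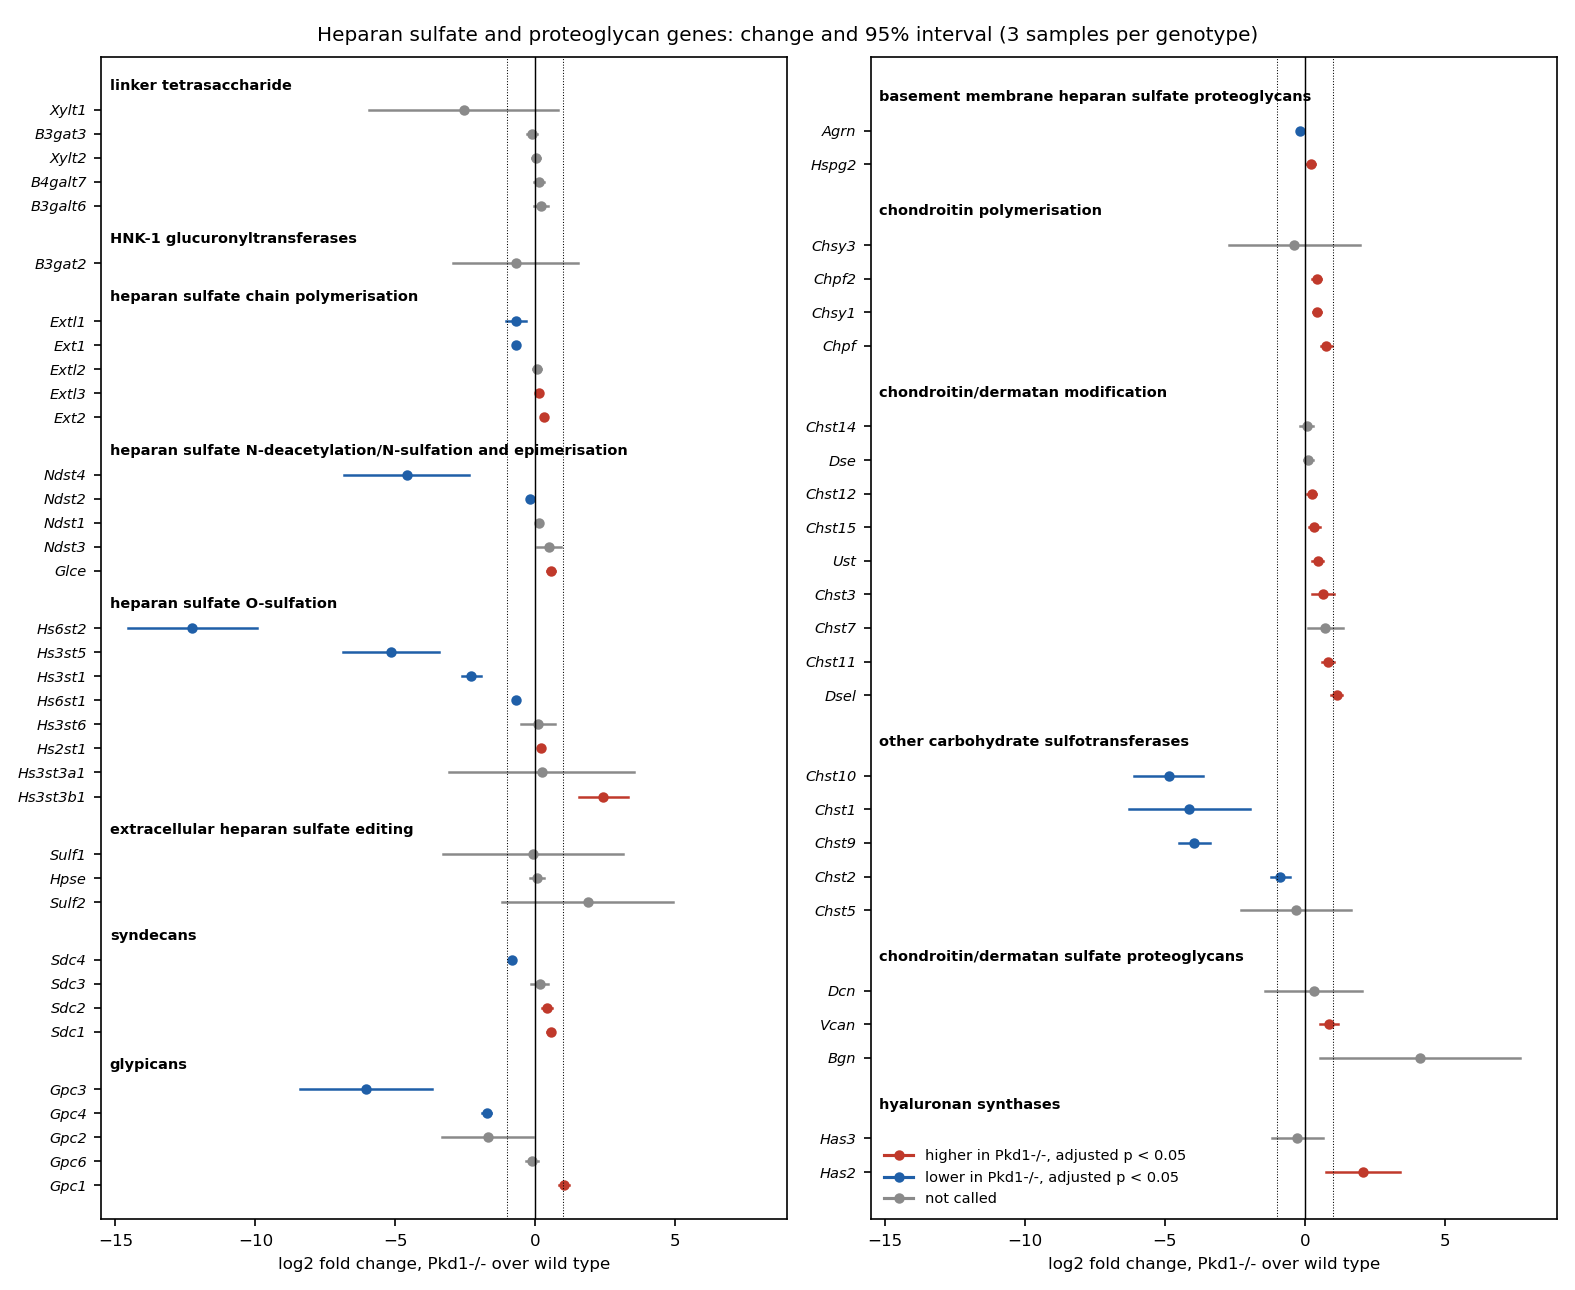
Log2 fold change (Pkd1-/- over wild type, x axis) of the 61 genes, grouped by role, with 95% intervals as lines and 2-fold limits dotted (3 samples per genotype). Long intervals belong to genes with few reads, and the points farthest to the left are in the O-sulfation, glypican and other sulfotransferase groups.

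The enzymes that build the linker did not pass the test. All 5 measured members of that step (Xylt1, Xylt2, B4galt7, B3galt6 and B3gat3) were not called, with a median log2 fold change of 0.02. Xylt2, the xylosyltransferase that starts the linker and the most abundant of them by mean count, had implied counts of 914.3 in wild type and 929.2 in Pkd1-/- cells (log2 fold change 0.02, 95% interval -0.12 to 0.17). The interval limits any change of Xylt2 to well under 1.5-fold. Xylt1, its paralog, had a mean normalized count of 1.96, too low to read a change (95% interval -5.93 to 0.80). B3gat2, a glucuronyltransferase of the HNK-1 epitope that the naming rule also took in, had a mean of 1.56 and was not called.

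Among the 5 polymerases and related glycosyltransferases of heparan sulfate, 2 were higher and 2 lower, with a median log2 fold change of 0.07. All had a mean count over 100, where 56.2% of all genes were called. Ext1 and Ext2 form the polymerase as a complex, and they moved in opposite directions. Ext1 fell from an implied count of 5742 to 3559 (log2 fold change -0.69, SE 0.05, adjusted p = 1.07e-36), a 1.61-fold lower level with a 95% interval of 1.5 to 1.73. Ext2 rose from 1639 to 2027 (log2 fold change 0.31, SE 0.06, adjusted p = 4.39e-07). Per kb of exon, Ext1 went from 707 to 438 and Ext2 from 123 to 152, so Ext1 remained the more abundant in both genotypes. This scale allows for gene length, but its divisor takes in the exons of all annotated isoforms, whichever the cells use. Extl1, an exostosin-like glycosyltransferase at 13.0 per kb in wild type cells, fell by 0.69 on the log2 scale (adjusted p = 3.38e-04). Extl3, which adds the first N-acetylglucosamine of the chain, was higher by a log2 fold change of 0.12 (adjusted p = 0.0225), and this call was lost when the changes were centred on the median of all genes (adjusted p = 0.0758). Extl2 was not called.

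Of the 5 measured enzymes that prepare the nascent chain, 1 was called higher and 2 lower (16.9% and 18.8% of all genes were). Glce, the C5-epimerase that turns glucuronic into iduronic acid, rose from an implied count of 870.5 to 1276 (log2 fold change 0.55, SE 0.07, adjusted p = 1.65e-14), which is 1.47-fold. The N-deacetylase/N-sulfotransferases, which set where later sulfates can be added, held their summed level per kb, at 516 in wild type and 528 in Pkd1-/- cells. Ndst1 supplied 66.8% and 71.1% of that sum, with implied counts of 3329 and 3625, and was not called (log2 fold change 0.12, adjusted p = 0.0755). Ndst2 was lower by a small amount (log2 fold change -0.17, adjusted p = 0.0427). Ndst3, with implied counts of 41.2 and 57.9, was not called (log2 fold change 0.49, adjusted p = 0.064). Ndst4 fell from 14.8 to 0.615 (log2 fold change -4.59, SE 1.14, adjusted p = 2.82e-04), a fitted ratio of 24.1-fold with a 95% interval from 5.11 to 114. The lower level rests on 1.84 normalized counts over the 3 Pkd1-/- libraries, under the floor of 3 counts over the group, and against that floor the ratio is 14.8-fold. Its share of the Ndst sum per kb was 0.22% in wild type cells, so this change hardly touched the family total.

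Heparan sulfate O-sulfation held the member with the lowest log2 fold change. Of 8 measured enzymes, 4 were lower and 2 higher (18.8% and 16.9% of all genes were), with a median log2 fold change of -0.29 beside -0.03 over all genes. Hs6st2, a 6-O-sulfotransferase that adds sulfate to glucosamine, had an implied mean normalized count of 1237 in wild type cells and 0.254 in Pkd1-/- cells. Over the 3 Pkd1-/- libraries together this amounts to 0.762 normalized counts, a value implied by the fit and not a number of reads. Set against a floor of 3 counts over the group, Hs6st2 was at least 1237-fold lower in Pkd1-/- cells. The fitted log2 fold change was -12.25 (SE 1.18, 95% interval -14.56 to -9.94, adjusted p = 8.63e-24), a value that depends on how the fit treats counts near 0 and is no bound. It ranked 2 from the lowest among 20624 genes. The change exceeded a fold change of 2 with an adjusted p = 2.36e-19.

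Its paralog Hs6st1 did not make up the difference in RNA level. Hs6st1 fell from an implied count of 4831 to 3024 (log2 fold change -0.68, SE 0.05, adjusted p = 4.46e-39), a 1.6-fold lower level with a 95% interval of 1.49 to 1.71. Per kb of exon, Hs6st1 went from 714 to 447 and Hs6st2 from 158 to 0.0325. The family sum therefore went from 872 to 447 per kb, a ratio of 0.512. Hs6st2 supplied 18.2% of that sum in wild type cells, and by level per kb the fall of Hs6st1 was the larger part of the drop. Levels of RNA do not give enzyme activity, which was not measured.

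Hs6st2 lies on the minus strand at chrX:50476089-50770733 (GRCm39), and its canonical transcript has 3 exons. Beside it on the same strand lie both glypican genes that fell, Gpc4 at chrX:51139255-51254262 and Gpc3 at chrX:51361303-51703137. The starts of Gpc4 and Gpc3 are 0.484 and 0.932 Mb from that of Hs6st2. Within 3 Mb of the Hs6st2 start, 20 genes had a mean normalized count of at least 10. Of the 17 that are not members, 13 had a positive log2 fold change and 12 were called higher, while 3 were called lower. The 3 lower ones were Mbnl3, a splicing regulator at -0.475 Mb (log2 fold change -3.46, adjusted p = 3.40e-95), Ccdc160 at 1.11 Mb (-2.98, adjusted p = 2.92e-15) and Rtl8b at 1.91 Mb (-4.78). From Mbnl3 to Gpc3 every gene with such a mean was lower, and Ccdc160 was also lower although Gm14586 before it was not called (log2 fold change -0.07). The genes called higher lay on either side of that run, such as Rap2c (log2 fold change 0.60) on one side and Phf6 (0.62) and Hprt (1.12) on the other. Xlr, at 2.03 Mb, had a log2 fold change of 5.91. Xlr and Rtl8b belong to families of near-identical copies, and their counts are uncertain. Whether the stretch differs between the lines in its DNA or in its regulation was not tested.

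**Figure D3:**
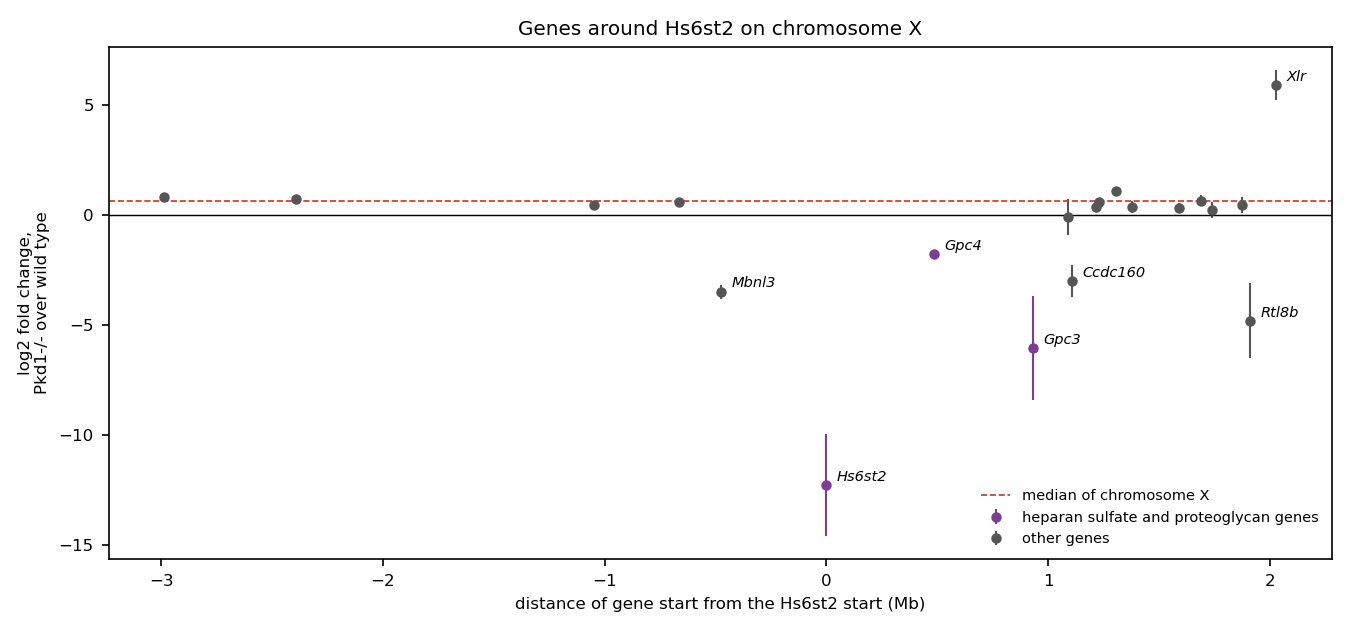
Log2 fold change (y axis) of the 20 genes with a mean normalized count of at least 10 within 3 Mb of the Hs6st2 start, against the distance of their starts from it in Mb (x axis), with 95% intervals as lines. Mbnl3, Hs6st2, Gpc4 and Gpc3 form a run of lower genes. Ccdc160 and Rtl8b farther on are also lower and Xlr is higher, while the remaining 13 genes lie between -0.07 and 1.12, around the chromosome X median of 0.66 drawn as a dashed line.

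The 250 bases before the outermost annotated start of these 3 neighbouring genes were read from GRCm39 and are shown because the genes fell together. For comparison, those of Hs6st1 and Gpc1 are shown, the genes with the highest mean count over all 6 samples in their families. Each is written 5' to 3' on the gene's strand, with CG dinucleotides in capitals. Hs6st2 (chrX:50770734-50770983, minus strand) holds 3, Gpc3 (chrX:51703138-51703387, minus strand) 4, Gpc4 (chrX:51254263-51254512, minus strand) 18, Hs6st1 (chr1:36107187-36107436, plus strand) 30 and Gpc1 (chr1:92758812-92759061, plus strand) 13.
Hs6st2: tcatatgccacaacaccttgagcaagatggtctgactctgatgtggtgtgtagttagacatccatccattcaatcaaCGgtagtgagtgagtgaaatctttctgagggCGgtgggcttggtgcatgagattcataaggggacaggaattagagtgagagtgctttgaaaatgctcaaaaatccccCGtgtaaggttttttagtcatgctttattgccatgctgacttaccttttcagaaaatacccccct
Gpc3: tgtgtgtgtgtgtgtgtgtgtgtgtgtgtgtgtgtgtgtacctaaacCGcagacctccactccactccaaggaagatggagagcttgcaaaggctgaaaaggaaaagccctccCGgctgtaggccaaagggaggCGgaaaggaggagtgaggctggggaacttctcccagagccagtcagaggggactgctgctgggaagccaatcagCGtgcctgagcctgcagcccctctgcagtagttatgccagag
Gpc4: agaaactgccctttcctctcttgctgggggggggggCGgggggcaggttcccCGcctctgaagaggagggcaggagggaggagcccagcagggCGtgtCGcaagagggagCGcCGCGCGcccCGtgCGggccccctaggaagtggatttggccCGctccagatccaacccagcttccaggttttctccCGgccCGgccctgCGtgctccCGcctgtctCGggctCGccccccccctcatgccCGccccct
Hs6st1: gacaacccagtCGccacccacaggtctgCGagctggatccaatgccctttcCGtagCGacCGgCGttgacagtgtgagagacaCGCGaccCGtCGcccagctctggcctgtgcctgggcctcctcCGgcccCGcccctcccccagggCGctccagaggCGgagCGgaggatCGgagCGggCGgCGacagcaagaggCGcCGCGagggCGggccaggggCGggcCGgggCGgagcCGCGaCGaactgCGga
Gpc1: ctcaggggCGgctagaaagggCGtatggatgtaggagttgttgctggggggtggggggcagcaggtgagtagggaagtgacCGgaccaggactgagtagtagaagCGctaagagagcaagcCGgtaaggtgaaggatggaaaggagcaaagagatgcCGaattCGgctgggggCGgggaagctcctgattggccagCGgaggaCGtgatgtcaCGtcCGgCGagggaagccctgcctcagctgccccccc
Of these 3 neighbours, the 2 that fell below an implied count of 2 had 3 and 4, while Gpc4, which kept an implied count of 1201, had 18. Other members did not divide in this way. Sdc4 and Ext2, which stayed abundant, had 3 and 2. Of other members that fell below an implied count of 2, Chst10 and Hs3st5 had 9 and 7, and Ndst4 and Chst1 had 2 each. All genes had a median of 7 in the same window. Over the 61 members the median was 10, equal to that of the 13610 genes whose mean count reached 10. The 9 members lower by a fold over 2 had a median of 7 (range 2 to 18) and the 4 higher ones a median of 13.5 (range 11 to 15). The Sp1-type motif GGGCGG, searched on both strands, occurred in 33 members (54.1%), against 32.4% of all genes and 39.1% of those whose mean count reached 10. TATAAA, also searched on both strands, occurred in 3 members (4.92%), against 11.1% and 9.27%. These are descriptions of letters in a window and were not tied to binding.

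The 3-O-sulfotransferases add the rarest sulfate of the chain, which makes binding sites for antithrombin and other proteins. Hs3st1, the enzyme best known for antithrombin sites, fell from an implied count of 251.2 to 51.7 (log2 fold change -2.28, SE 0.17, adjusted p = 1.02e-39), 4.86-fold lower with a 95% interval of 3.86 to 6.12. Hs3st5 fell from 46.0 to 1.30 (log2 fold change -5.14, SE 0.88, adjusted p = 3.59e-08). Against these, Hs3st3b1 rose from 4.09 to 22.1 (log2 fold change 2.43, SE 0.45, adjusted p = 4.24e-07), 5.40-fold with a 95% interval of 2.94 to 9.94. Hs3st3b1 was the member that exceeded a fold change of 2 in the upward direction (adjusted p = 0.0406). Hs3st6 was at 28.6 and 30.5 (log2 fold change 0.09, 95% interval -0.52 to 0.70), and Hs3st3a1, with a mean of 0.778, was too low to read. The sulfotransferase domains of Hs3st3a1 and Hs3st3b1 are nearly identical, and reads that match both could be dropped or misassigned, so the counts of both are uncertain.

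The make-up of the 3-O-sulfotransferase family differed between the genotypes. Per kb of exon the sum went from 73.1 to 30.8. Hs3st1 supplied 63.7% of it in wild type and 31.1% in Pkd1-/- cells. Hs3st6 went from 20.9% to 52.8%, although its own level hardly moved, and Hs3st3b1 from 1.12% to 14.4%. The family sum is small beside that of the Hs6st genes, so these shares rest on few reads. The remaining O-sulfotransferase, Hs2st1, which acts on iduronic acid, was higher by a log2 fold change of 0.19 (adjusted p = 8.49e-04), a call lost when the change was centred on the median of its chromosome (0.08, adjusted p = 0.232).

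Enzymes that edit heparan sulfate outside the cell were not called. Hpse, the heparanase that cuts the chain, had implied counts of 189.5 and 196.0 (log2 fold change 0.05, 95% interval -0.20 to 0.30). Sulf1 and Sulf2, which take 6-O-sulfate off again, had mean normalized counts of 1.16 and 1.11. Neither could show a change at this level.

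**Figure D4:**
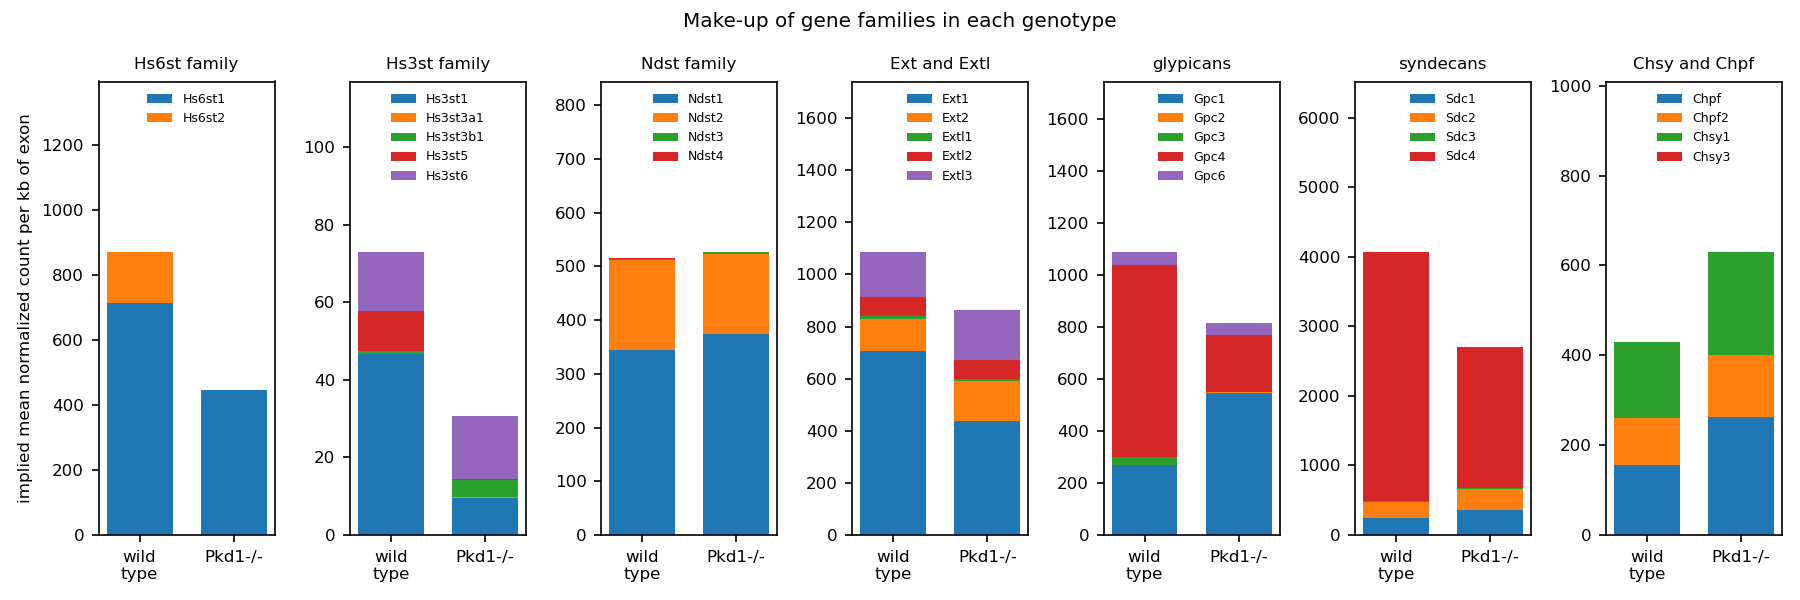
Implied mean normalized count per kb of exon (y axis, starting at 0, a scale of its own in each panel) of the members of 7 gene families, stacked, in wild type and Pkd1-/- cells. The Hs6st sum falls from 872 to 447, the glypican sum passes from mostly Gpc4 to mostly Gpc1, and the Chsy and Chpf sum rises from 430 to 631.

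The glypicans, heparan sulfate proteoglycans held at the membrane by a lipid anchor, moved in different directions. Gpc4 fell from an implied count of 4017 to 1201 (log2 fold change -1.74, SE 0.08, adjusted p = 6.15e-105), 3.34-fold lower with a 95% interval of 3.00 to 3.72, and exceeded a fold change of 2 (adjusted p = 1.01e-18). Gpc3, a regulator of growth whose loss causes an overgrowth syndrome with kidney anomalies, fell from 84.8 to 1.29 (log2 fold change -6.04, SE 1.2, adjusted p = 3.43e-06). Gpc1 rose from 2622 to 5329 (log2 fold change 1.02, SE 0.08, adjusted p = 2.09e-32), 2.03-fold with a 95% interval of 1.81 to 2.28. The interval reaches below 2, and the change did not exceed a fold change of 2 in the test of that limit. Gpc6 was not called at 468.4 and 430.6 (log2 fold change -0.12), nor was Gpc2 with a mean of 4.76 (log2 fold change -1.70, adjusted p = 0.103).

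The order of the glypicans by level per kb turned over. Gpc4 led in wild type cells with 740 per kb, followed by Gpc1 with 269. In Pkd1-/- cells Gpc1 led with 547 and Gpc4 followed with 221. As shares of the glypican sum, Gpc4 went from 68.0% to 27.1% and Gpc1 from 24.7% to 67.1%. The sum itself went from 1089 to 815 per kb. That fall depends on the exon lengths used, 9739 bases for Gpc1 and 5427 for Gpc4. Without this division, the implied count of Gpc1 rose from 2622 to 5329 and that of Gpc4 fell from 4017 to 1201, changes of similar size. The chromosome X median was positive, so the lower Gpc4 and Gpc3 lay against the direction of their chromosome.

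The syndecans, which span the membrane, were led by Sdc4 in both genotypes. Sdc4, a co-receptor at focal adhesions, fell from an implied count of 10383 to 5853 (log2 fold change -0.83, SE 0.04, adjusted p = 1.76e-76), 1.77-fold lower with a 95% interval of 1.67 to 1.88. Sdc1, the main syndecan of epithelia, rose from 1026 to 1495 (log2 fold change 0.54, SE 0.06, adjusted p = 1.25e-18). Sdc2 rose from 1602 to 2118 (log2 fold change 0.40, SE 0.09, adjusted p = 4.74e-05), and Sdc3 was not called (0.16). The higher levels of Sdc1 and Sdc2 did not offset this, and the syndecan sum went from 4075 to 2700 per kb, with the share of Sdc4 going from 87.9% to 74.8%.

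Both members that are heparan sulfate proteoglycans of the basement membrane were among the most abundant members by mean count and changed little. Agrn, which encodes agrin, had implied counts of 14564 and 12792 (log2 fold change -0.19, SE 0.05, adjusted p = 5.37e-04). Hspg2, which encodes perlecan, had 16215 and 18794 (log2 fold change 0.21, SE 0.08, adjusted p = 0.024). Both calls are of changes under 1.5-fold, in opposite directions. Col18a1, which encodes the collagen XVIII core of another basement membrane heparan sulfate proteoglycan and is no member by the naming rule, had a mean normalized count of 14457 and was lower by more, with a log2 fold change of -0.60 (SE 0.06, adjusted p = 5.41e-22).

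The enzymes of chondroitin and dermatan sulfate rose where they passed the test. Of 13 measured, 9 were higher (69.2%, against 16.9% of all genes), none was lower (18.8% of all genes) and 4 were not called, with a median log2 fold change of 0.43 beside -0.03 over all genes. Only 1 of the 13 had a mean under 10. Of the 13724 genes whose mean count reached 10, 3349 were higher and 3554 lower. Among the polymerases, Chpf, the chondroitin polymerizing factor, rose from an implied count of 599.4 to 1012 (log2 fold change 0.76, SE 0.10, adjusted p = 6.49e-13). Chsy1, a chondroitin synthase and the most abundant of this step by mean count, rose from 962.3 to 1299 (log2 fold change 0.43, SE 0.07, adjusted p = 6.48e-09). Chpf2 rose by a log2 fold change of 0.41 (adjusted p = 5.34e-07), and Chsy3, with a mean of 1.73, was not called. The polymerase sum per kb went from 430 to 631, a ratio of 1.47, while that of the heparan sulfate Ext and Extl genes went from 1088 to 862.

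Among the modifying enzymes, 6 of 9 were higher (66.7%, against 16.9% of all genes and 3349 of the 13724 genes whose mean count reached 10). Dsel, an epimerase-like enzyme of dermatan sulfate, rose from an implied count of 219.1 to 478.2 (log2 fold change 1.13, SE 0.10, adjusted p = 9.15e-26), 2.18-fold with a 95% interval of 1.89 to 2.51. Dse, the other dermatan sulfate epimerase and the most abundant of this group by mean count, had 831.0 and 897.5 and was not called (log2 fold change 0.11, 95% interval -0.05 to 0.28). Chst11, a chondroitin 4-O-sulfotransferase, rose from 242.7 to 428.1 (log2 fold change 0.82, SE 0.11, adjusted p = 3.11e-12). The other called members changed less, with log2 fold changes of 0.63 for Chst3, 0.45 for Ust, 0.34 for Chst15 and 0.23 for Chst12. That of Chst12 was lost when centred on the median of all genes (adjusted p = 0.0525). Chst14, the dermatan 4-O-sulfotransferase, was not called (0.06), nor was Chst7 on chromosome X (log2 fold change 0.73, 95% interval 0.10 to 1.35, adjusted p = 0.0615), close to the median of its chromosome.

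Of the chondroitin and dermatan sulfate core proteins, Vcan passed the test. Vcan, the large matrix proteoglycan versican, rose from an implied count of 554.7 to 1011 (log2 fold change 0.87, SE 0.16, adjusted p = 7.44e-07), 1.82-fold with a 95% interval of 1.46 to 2.27. Dcn had a mean of 6.01 and was not called (log2 fold change 0.30). Bgn, on chromosome X, had a mean of 1.12 and was not called, with a log2 fold change of 4.12 whose 95% interval ran from 0.54 to 7.69 (adjusted p = 0.0644). Of the 5 stromal markers, Col1a1 was higher by a log2 fold change of 2.07 (adjusted p = 1.89e-48) and Acta2 by 0.70 (adjusted p = 9.19e-04). The other 3 were at low counts and not called, with log2 fold changes of 1.03 for Col3a1, 1.04 for Pdgfrb and -2.87 for Pdgfra, so the list did not move as a whole. The part of stromal markers in the rise of the chondroitin sulfate genes was not tested.

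Hyaluronan is made at the plasma membrane, without a core protein or sulfate. Has2 rose from an implied count of 2.37 to 9.97 (log2 fold change 2.07, SE 0.68, adjusted p = 0.00794), 4.21-fold with a wide 95% interval of 1.68 to 10.6. Has3, with 13.2 and 10.9, was not called (log2 fold change -0.28). Both synthases were expressed at a low level per kb, 0.476 and 2.00 for Has2 and 2.07 and 1.71 for Has3 in wild type and Pkd1-/- cells.

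The sulfotransferases of keratan sulfate, N-glycans and the HNK-1 epitope, which share the Chst name but do not act on heparan or chondroitin sulfate, were lower as far as they were called. Of 5 measured, 4 were lower (18.8% of all genes were) and none higher (16.9% of all genes), with a median log2 fold change of -3.96 beside -0.03 over all genes. Chst9, which sulfates N-acetylgalactosamine of N-glycans, fell from an implied count of 289.3 to 18.6 (log2 fold change -3.96, SE 0.28, adjusted p = 1.77e-43), 15.5-fold lower with a 95% interval of 10.6 to 22.7. Chst10, the HNK-1 sulfotransferase, fell from 53.8 to 1.83 (log2 fold change -4.88, SE 0.63, adjusted p = 1.64e-13). Chst1, a keratan sulfate sulfotransferase, fell from 30.7 to 1.75 (log2 fold change -4.13, SE 1.10, adjusted p = 7.70e-04), but did not exceed a fold change of 2 in the test of that limit (adjusted p = 0.115). Chst2, an N-acetylglucosamine sulfotransferase, fell from 124.8 to 67.6 (log2 fold change -0.89, SE 0.17, adjusted p = 2.36e-06). Chst5, with a mean of 3.37, was not called.

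Members with a fold over 2 were mostly genes of low to moderate level in wild type cells. Of the 14 members with an implied count of at least 1000 in wild type cells, 13 were called but 3 had a fold over 2, namely Hs6st2, Gpc4 and Gpc1. The share called among all genes of that level was not worked out. From a mean of 100 it was 56.2% of all genes, and it rose with the mean. Whether 13 of 14 is more than other genes of that level show is therefore not known. Another 5 members that were called lower, besides Hs6st2, had an implied count under 2 in Pkd1-/- cells, namely Gpc3, Hs3st5, Chst10, Ndst4 and Chst1. Their intervals are wide for this reason, from 5.11 to 114-fold lower for Ndst4 and from 12.9 to 338-fold lower for Gpc3.

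Genes that supply or break down the same chains were measured as well, from lists of 60 genes of which 47 were analysed. Among them 23 were called, 10 higher and 13 lower (48.9%, against 35.7% of all genes and 50.3% of those whose mean count reached 10), and 6 had a fold over 2. Their share called is thus near that of expressed genes, and 6 of the 47 had a mean under 10. Papss2, which makes the sulfate donor PAPS, fell from an implied count of 371.6 to 85.8 (log2 fold change -2.12, SE 0.13, adjusted p = 1.65e-53), while Papss1, the other synthase, was higher by 0.14 (adjusted p = 0.0362). Papss1 had a mean normalized count of 1891 against 229 for Papss2. Of the 10 measured supply genes, 6 were called, 4 higher and 2 lower. Their share of 60% is near the 56.2% of all genes whose mean count reached 100. The 4 genes of linker phosphorylation and chondroitin initiation were not called, as with the linker enzymes themselves. Of 15 genes of the lysosomal breakdown of the chains, 2 were higher and 6 lower, against 16.9% and 18.8% of all genes. None had a mean under 10, and the 53.3% called is near the 50.3% of all genes whose mean count reached 10. The lower ones included the heparan sulfate hydrolases Sgsh (log2 fold change -0.59) and Naglu (-0.62), the glucuronidase Gusb (-0.59), and by less Galns (-0.27) and Hexa (-0.26). The sulfatase activator Sumf1 was also lower (-0.63), but its gene lies on chromosome 6, where the median was -0.39. The higher ones were Hyal1, a hyaluronidase (1.63, adjusted p = 2.75e-07), and Ids, an iduronate sulfatase whose gene lies on chromosome X (0.58).

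Other core proteins and receptors were mixed. Of 13 further proteoglycan cores measured, 2 were higher and 3 lower. The share called was 38.5%, near the 35.7% of all genes. Tgfbr3, or betaglycan, a co-receptor of TGF-beta that can carry heparan sulfate, fell by 2.20 on the log2 scale (SE 0.15, adjusted p = 2.04e-44), and Fmod, the small proteoglycan fibromodulin, fell by 2.50 (SE 0.43, adjusted p = 5.63e-08). Spock2, or testican-2, was higher by a log2 fold change of 1.54 (SE 0.25, adjusted p = 4.23e-09). Of the 5 fibroblast growth factor receptors, which bind their ligands together with heparan sulfate, 2 were higher and 2 lower (16.9% and 18.8% of all genes were). Fgfr1 was higher by a log2 fold change of 1.67 (SE 0.12, adjusted p = 4.66e-44).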

How the data were processed

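Total RNA of 3 Pkd1-/- and 3 wild type samples of mDCT15 cells was depleted of ribosomal RNA, made into libraries (KAPA RNA HyperPrep with RiboErase) and sequenced with paired ends. Per the submitters' notes, the authors used Trim Galore 0.4.5, STAR 2.7.5a on GRCm39 (annotation of Ensembl release 105), HTSeq 0.11.0, DESeq2 1.22.0 and R 3.5.3. Counting used default settings, and how reads of overlapping genes on opposite strands were assigned was not checked. Single samples were outside the analysis.

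The deposited table of their comparison holds for each gene the mean over all samples of the normalized count, a signal scaled by the authors for library depth. Fold changes and their errors were deposited on a log2 scale. The deposited Wald statistic is a score, and the deposited p-values and adjusted p-values come from it. The table holds no other numeric columns. The deposited sign is positive where wild type is higher and was turned here. The direction was taken from the list of changed genes supplied with the paper, in which 1998 of 1998 genes found in the table had the opposite sign. The p-values were adjusted again over all 20624 genes (Benjamini-Hochberg), with calls under 0.05 and, where stated, a fold over 2. The test against a fold change of 2 and the 95% intervals used the standard error with a normal approximation. Means of each genotype were implied by the mean, the fold change and the group sizes, and levels per kb divided them by the union of exons in a GRCm39 annotation that held 20122 of the genes (97.6%). Calculations ran in Python 3.11.15 (pandas 2.3.3, numpy 2.4.6, scipy 1.17.1), with plots by matplotlib 3.10.9, and the steps were tested on simulated data.

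The members and lists were chosen with earlier results of these data known. Values are given for every member with a called fold over 2, for its numbered family, for the member with the highest mean in each of 14 role groups, for members on a chromosome whose median lay over 0.3 (log2) from that of all genes, for genes in the further lists with a called fold over 2, for the nearest genes of members changed over 4-fold, and for Pkd1. Xylt1, B4galt7, B3galt6, B3gat3, Ext2, Extl1, Extl2, Extl3, Glce, Hs2st1, Sulf1, Sulf2, Sdc1, Sdc2, Sdc3, Agrn, Chpf, Chpf2, Chsy3, Dcn and Ust, genes farther along chromosome X, single markers, Papss1, Col18a1 and genes of lysosomal breakdown other than Hyal1 were named after their values were seen. Alternatives were another adjustment, filters on low means, other fold limits and centring on the median of all genes or of the chromosome. Without counts per sample, samples could not be left out and the precision rests on the deposited standard errors.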

Additional observations from a re-analysis of the deposited data

How the results depend on the processing

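The 36 called members became 22 with Bonferroni adjustment, 11 higher and 11 lower. Under the other alternatives the count ranged from 28 of 38 members with a minimum mean of 100 to 41 with unadjusted p-values, and was 33 without the members on chromosome X, an alternative chosen after seeing the data. The 13 with a fold over 2 became 6 of 38 members with a minimum mean of 100 and 22 with a fold limit of 1.5. The count exceeding a fold change of 2 was 9 under both centrings. Centred on the median of all genes, Chst12 (log2 fold change 0.21, adjusted p = 0.0525) and Extl3 (0.10, adjusted p = 0.0758) were no longer called. Centred on their chromosome, Chst12 (0.17), Extl3 (0.04) and Hs2st1 (0.08) were no longer called, and Extl2 (-0.0345) and Hpse (-0.0145), not called before, changed sign. The other 59 and 56 members kept their direction and call. For the lost calls the cause is the size of the shift beside a small change. No paired analysis was possible because only pooled values of the comparison were analysed, and for the same reason the refits without each sample were not run. The depth limits what the 12 members with a mean under 10 can show.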

Other observations

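The 3 nearest genes with a mean normalized count of at least 10 on each side of the other members called with a fold over 4 were looked at in the same way as those of Hs6st2. Beside Ndst4 on chromosome 3, 4 of 6 were called lower, namely Tram1l1 (log2 fold change -8.20, 1.08 Mb before its start), Ugt8a (-2.11, 0.535 Mb after it), Camk2d (-0.76) and Gm43011 (-0.61), while Ndst3 on the far side of Tram1l1 was not called (0.49).

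Beside Chst10 on chromosome 1, Aff3, 0.233 Mb away, had a log2 fold change of -3.99 and Gm37309 one of -0.66, and the remaining 4 genes were not called lower. Beside Chst1 on chromosome 2, Syt13 (-1.73), Prdm11 (-0.89) and Mapk8ip1 (-0.24) were called lower. Beside Hs3st1 on chromosome 5, 1 of 6 was called lower, the unnamed gene Gm42528 at 0.145 Mb (-2.15). For Hs3st5, Chst9, Hs3st3b1 and Has2 no neighbour had a called fold over 2 in the same direction, with log2 fold changes among the 6 genes from -0.27 to 0.76, from -0.66 to 0.44, from -0.19 to 0.87 and from -0.52 to 0.66. Whether neighbouring genes change together more often than other genes was not tested.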
